A study of Mus musculus with 24 samples.

Results

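Metallothioneins and the zinc genes around them were followed as 5 genes, Mt1, Mt2, Slc30a1, Slc39a14 and Mtf1, out of 51138 genes in the count table. The set was chosen by the CPM levels of genes of the zinc pathway across the 6 groups of constructs, so those levels and differences are given as a description, and no test of them is read as a result. All 5 genes were found in the table, and all 5 were among the 30564 genes with at least 10 counts over all libraries.

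Bulk RNA sequencing had been performed on 24 whole constructs in 6 groups of 4 mice, with 1 construct sequenced per mouse. Every construct held 40 mg of biphasic calcium phosphate (BCP) granules, a ceramic bone substitute, and lay for 2 weeks under the back skin of male and female Foxp3-DTR/eGFP mice, which were 8 to 9 weeks old at implantation and carried 2 constructs of their group each. They were implanted bare (BCP), with bone marrow mesenchymal stromal cells of C57BL/6J mice (BCP+MSC), with such cells primed with 10 nM resolvin E1, a lipid mediator that resolves inflammation (BCP+MSC+RvE1), or with stromal and regulatory T cells together (BCP+MSC+Treg), after 36 h of culture. In 2 more groups, mice with BCP+MSC constructs received diphtheria toxin at 50 µg/kg until day 10. No further treatment is described for (dep)BCP+MSC, while (dep)BCP+MSC+RvE1inj had daily injections of 1 µM resolvin E1 at the implant. The labels give the groups only as short codes, which were read with the study's text, and R was read as BCP+MSC+RvE1 although the count table's header also lists 4 alignments coded RVE that have no column in the table. The toxin receptor in this strain is driven by Foxp3, so the toxin is directed at regulatory T cells. The samples hold no toxin control, such as mice of another genotype given toxin, so toxin, loss of regulatory T cells and a separate experiment cannot be told apart. No injections without resolvin E1 are described either, so between the toxin groups resolvin E1 and repeated injection cannot be told apart. The RNA came from seeded and host cells together, and in such bulk samples fewer cells of a type and less RNA per cell cannot be told apart.

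Metallothioneins are small proteins rich in cysteine that bind zinc and copper. Zinc that is free in the cell is sensed by the transcription factor MTF-1, which binds metal response elements (MRE) in the promoters of the metallothionein genes and of Slc30a1. Slc30a1 (ZnT1) is the zinc exporter of the plasma membrane, and Slc39a14 (ZIP14) is an importer of zinc, iron and manganese that is known for its induction by interleukin-6. Metallothionein genes also respond to glucocorticoids, to oxidative stress and to inflammation, and in muscle they are known to rise during wasting.

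The count table places Mt1 (ENSMUSG00000031765.8) at chr8:94179082-94180327 and Mt2 (ENSMUSG00000031762.7) at chr8:94172664-94173568 on the plus strand of GRCm38, with 5513 bases between them. Mt3 and Mt4 lie upstream on the same strand, and the 4 genes span 43131 bases. Slc30a1 (ENSMUSG00000037434.7) lies at chr1:191906767-191913247 on the plus strand, Slc39a14 (ENSMUSG00000022094.15) at chr14:70303469-70351425 on the minus strand, and Mtf1 (ENSMUSG00000028890.13) at chr4:124802104-124849800 on the plus strand. Gm45774 overlaps Mt2 on the opposite strand and held 3510 counts over all libraries, against 85776 for Mt2. Likewise 1700034H15Rik overlaps Slc30a1, and 1110065P20Rik overlaps Mtf1, with 625 and 5816 counts against 62795 and 22522, and the counting did not use strand.

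Since Mt1 and Mt2 varied together across the libraries, the sequence before each of them is shown, from RefSeq on GRCm38.p6, up to the RefSeq or the annotated start of the gene, whichever came first. The Mt1 stretch is chr8:94178839-94179081 and the Mt2 stretch chr8:94172368-94172617, both on the plus strand, 5′ to 3′. Capitals mark the core of an MRE, searched as TGCACNC or TGCGCNC on both strands.
Mt1 upstream: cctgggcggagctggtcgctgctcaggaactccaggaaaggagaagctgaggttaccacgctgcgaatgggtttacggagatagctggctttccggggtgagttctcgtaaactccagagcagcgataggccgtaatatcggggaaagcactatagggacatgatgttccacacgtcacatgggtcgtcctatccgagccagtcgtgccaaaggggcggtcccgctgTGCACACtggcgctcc
Mt2 upstream: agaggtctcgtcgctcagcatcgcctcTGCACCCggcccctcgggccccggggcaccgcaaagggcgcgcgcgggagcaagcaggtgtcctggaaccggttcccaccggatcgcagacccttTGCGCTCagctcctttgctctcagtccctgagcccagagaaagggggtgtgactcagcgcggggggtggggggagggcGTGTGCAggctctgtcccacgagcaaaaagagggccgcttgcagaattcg
The Mt1 stretch held 1 match and the Mt2 stretch 3 matches, and the Slc30a1 stretch held 1. At least 1 match was present in 21.4% of all 32851 RefSeq windows of 250 bases before a gene's start, and at least 2 matches in 5.17%. The Mt4 stretch held 1 match and the Mt3 stretch 0, which says only that these letters are not in that window. No window was used for Slc39a14 or Mtf1.

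The annotated starts of Mt1 and Mt2 lie before a TATAAA box, which begins at base 129 of the first Mt1 transcript and at base 90 of the first Mt2 transcript of GENCODE M21. The first 150 bases of these transcripts were therefore searched with the same letters. Each match is shown in capitals with 8 flanking bases on either side.
Mt1 base 10: gggagctcTGCACTCcgcccgaa
Mt1 base 28: ccgaaaagTGCGCTCggctctgc
Mt1 base 92: cgcctgctGGGTGCAaacccttt
Mt1 base 106: aaacccttTGCGCCCggactcgt
Mt2 base 13: aaaagggcGTGTGCAggcggcgg
Mt2 base 32: gcgggggcGCGTGCAtggtgcct
Mt2 base 66: ggagctttTGCGCTCgacccaat
Slc30a1 base 45: tccgggccGAGCGCAgtcgccgc
At least 3 matches, as in Mt2, were present in 0.388% of 58695 protein-coding transcripts of that annotation, and at least 4, as in Mt1, in 0.0545%. In Mt1 and Mt2 these bases take in the stretch before the TATAAA box, which need not hold for the other transcripts. The shares thus compare unlike stretches, and nothing is read from them. Mt3 also held 3 matches in its first 150 bases, and Slc39a14 and Mtf1 held 0. Such matches are a description of letters, and binding of MTF-1 was not measured.

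Total counts ran from 8482701 to 144417743 per library, a 17.02-fold range, and 7 libraries held fewer than 20000000 counts. Levels are given as CPM, the counts of a gene per 1000000 counts of its library, with edgeR's TMM scaling of the library sizes. The floor of 3 counts lay at 0.354 CPM in the shallowest library, far under all 5 genes, and covers counting error only. Foxp3, whose cells the toxin is meant to remove, was at 0.378 to 1.69 CPM in (dep)BCP+MSC, 0.298 to 1.07 CPM in (dep)BCP+MSC+RvE1inj and 0.629 to 1.19 CPM in BCP+MSC, so these groups overlapped. In the same order, these levels rested on 17 to 83, 4 to 60 and 38 to 78 counts per library. The study reported the depletion from flow cytometry of lymph nodes and spleen. That is another tissue and measure, so Foxp3 RNA in the constructs cannot tell whether depletion succeeded. The sexes were not balanced. Libraries with more Xist than the sum of 4 Y-linked genes, as in females, numbered 3 of 4 in BCP+MSC, 2 in (dep)BCP+MSC, 0 in (dep)BCP+MSC+RvE1inj and BCP+MSC+RvE1, and 1 each in BCP and BCP+MSC+Treg. With a sex covariate the Mt1 differences against BCP+MSC were 1.61 in (dep)BCP+MSC and 2.13 in (dep)BCP+MSC+RvE1inj, beside 1.52 and 1.62 without it.

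Mt1 had the highest mean of the 5 genes over all libraries, and its highest values were found in the mice given toxin. In BCP it was at 69.2, 110.2, 166 and 135 CPM, and its mean of 120.0 CPM stood beside 119.9 CPM for Slc39a14. In BCP+MSC Mt1 was at 268, 68.3, 738 and 153 CPM. These groups overlapped, and replicate 3 of BCP+MSC stood far above the others of its group. BCP+MSC+RvE1 had 198, 915, 145 and 338 CPM, and BCP+MSC+Treg had 306, 542, 142 and 182 CPM. Again 1 or more libraries of each group lay within the BCP range and others well above it. With toxin, Mt1 reached 527, 2023, 383 and 574 CPM in (dep)BCP+MSC and 411, 689, 1822 and 860 CPM in (dep)BCP+MSC+RvE1inj. All 8 libraries with toxin lay above every BCP library, which held for 2.57% of all genes tested. They also lay above the median of the 16 libraries without toxin, 174 CPM, which held for 5.67% of genes. Since Mt1 and Mt2 were chosen by these levels, nothing is read from the shares. However, 3 of those 16 libraries lay above the lowest library with toxin.

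**Figure D1:**
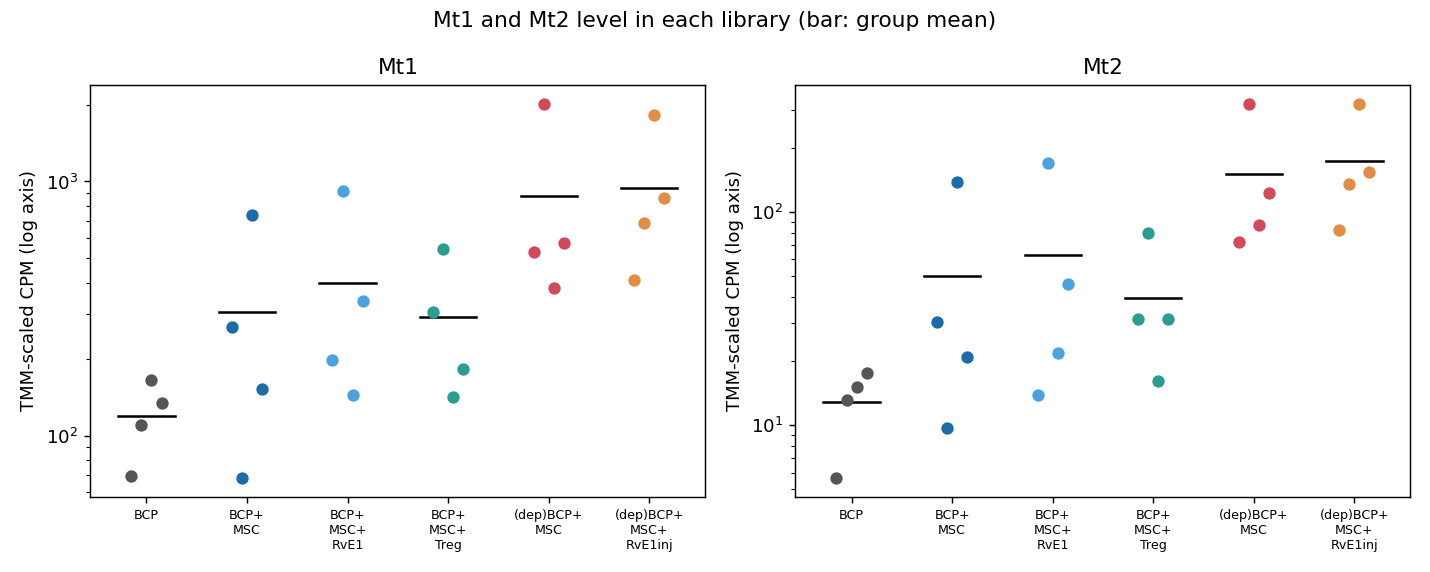
TMM-scaled CPM of Mt1 (left) and Mt2 (right) on log axes, with 1 point per library, 4 per group, and a bar at the group mean. The 8 points of both toxin groups sit above the 4 BCP points, as for 2.57% of all genes, while the high libraries of the other groups, with up to 915 CPM of Mt1, reach into the toxin range.

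Mt2 followed the same pattern at a lower level. In BCP it was at 5.66, 13.1, 15.1 and 17.5 CPM, with 97 counts in the lowest library. BCP+MSC had 30.5, 9.68, 138 and 21.0 CPM, with replicate 3 again the high one. BCP+MSC+RvE1 had 13.9, 171, 21.8 and 46.0 CPM, and BCP+MSC+Treg 31.4, 80.1, 16.1 and 31.3 CPM. The libraries that were high for Mt1 in these groups were also the high ones for Mt2. With toxin, Mt2 was at 72.4, 322, 86.5 and 123 CPM in (dep)BCP+MSC and at 82.4, 135, 319.7 and 153 CPM in (dep)BCP+MSC+RvE1inj. As for Mt1, and as for 2.57% of all genes, all 8 lay above every BCP library, and 3 of the 16 libraries without toxin lay above the lowest of them.

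Ordered by mean, Mt1 ran from 120.0 ± 40.8 CPM in BCP through 293 ± 180 in BCP+MSC+Treg, 307 ± 299 in BCP+MSC and 399 ± 354 in BCP+MSC+RvE1 to 877 ± 769 in (dep)BCP+MSC and 946 ± 613 in (dep)BCP+MSC+RvE1inj (SD, n = 4 each). For Mt2 the order was the same, with 12.8 ± 5.11, 39.7 ± 27.9, 49.8 ± 59.5, 63.1 ± 73.0, 151 ± 116 and 173 ± 103 CPM. No neighbours in either order differed by more than the larger of their SDs.

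In the model, Mt1 was higher by 1.52 ± 0.72 on the log2 scale in (dep)BCP+MSC than in BCP+MSC (fitted log2 fold change ± standard error), a ratio of means of 2.86. For (dep)BCP+MSC+RvE1inj against BCP+MSC the difference was 1.62 ± 0.73, a ratio of 3.08. Mt2 differed by 1.60 ± 0.83 and 1.79 ± 0.84 in the same comparisons. These estimates leaned on single libraries. Without replicate 2 of (dep)BCP+MSC the first Mt1 difference was 0.69, and without replicate 3 of BCP+MSC it was 2.43. For Mt2 in (dep)BCP+MSC+RvE1inj it was 1.31 without replicate 3 of that group and 3.08 without replicate 3 of BCP+MSC. With the 7 shallow libraries left out, the differences in (dep)BCP+MSC+RvE1inj were 0.89 for Mt1 and 1.17 for Mt2. Between the toxin groups, Mt1 differed by 0.11 ± 0.71 and Mt2 by 0.19 ± 0.81, and without the shallow libraries by -0.82 and -0.68. Both toxin groups were compared with the same BCP+MSC libraries.

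Against BCP without cells, the cell-laden constructs had higher mean levels of both genes. The Mt1 difference was 1.35 ± 0.72 in BCP+MSC, 1.29 ± 0.72 in BCP+MSC+Treg and 1.73 ± 0.73 in BCP+MSC+RvE1 (log2 fold change ± standard error). Mt2 differed by 1.96 ± 0.85, 1.63 ± 0.84 and 2.29 ± 0.86 in the same order. The groups overlapped in all of these comparisons, which share the BCP libraries. Without replicate 3 of BCP+MSC, its differences from BCP were 0.44 for Mt1 and 0.66 for Mt2. Those of BCP+MSC+RvE1 were 0.92 and 1.08 without its replicate 2, and 0.72 and 0.95 without the 7 shallow libraries. Those of BCP+MSC+Treg were 0.81 and 1.03 without its replicate 2. Against BCP+MSC, the differences with RvE1 priming and with Treg coculture were 0.38 ± 0.71 and -0.06 ± 0.71 for Mt1 and 0.34 ± 0.82 and -0.33 ± 0.82 for Mt2. None of these 4 kept its sign when single libraries were left out. The Mt1 differences ran from -0.44 to 1.29 with RvE1 and from -0.54 to 0.85 with Treg, and those of Mt2 from -0.87 to 1.63 and from -0.93 to 0.96. The lowest values came without replicate 2 of the treated group and the highest without replicate 3 of BCP+MSC.

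The pair was the closest of the 10 pairs among the 5 genes. Over the 24 libraries, log2 CPM of Mt1 and Mt2 had a Pearson r of 0.976, and of 0.952 after the mean of each group was taken away. The points share library depth and the scaling, and no p is given. Within a library the ratio of Mt1 to Mt2 counts does not depend on the scaling. It lay at 7.71 to 12.2 in BCP, 5.34 to 8.79 in BCP+MSC, 5.83 to 9.77 in BCP+MSC+Treg and 5.37 to 14.3 in BCP+MSC+RvE1. The toxin groups had 4.43 to 7.28 in (dep)BCP+MSC and 4.99 to 5.70 in (dep)BCP+MSC+RvE1inj. Every library with toxin thus had fewer Mt1 counts per Mt2 count than every BCP library, while both toxin groups overlapped with BCP+MSC. Per kilobase of exon, mean levels over all libraries were 393 CPM for Mt1 and 139 CPM for Mt2, where the 1246 bases of Mt1 exons include a long transcript that may not be used.

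**Figure D2:**
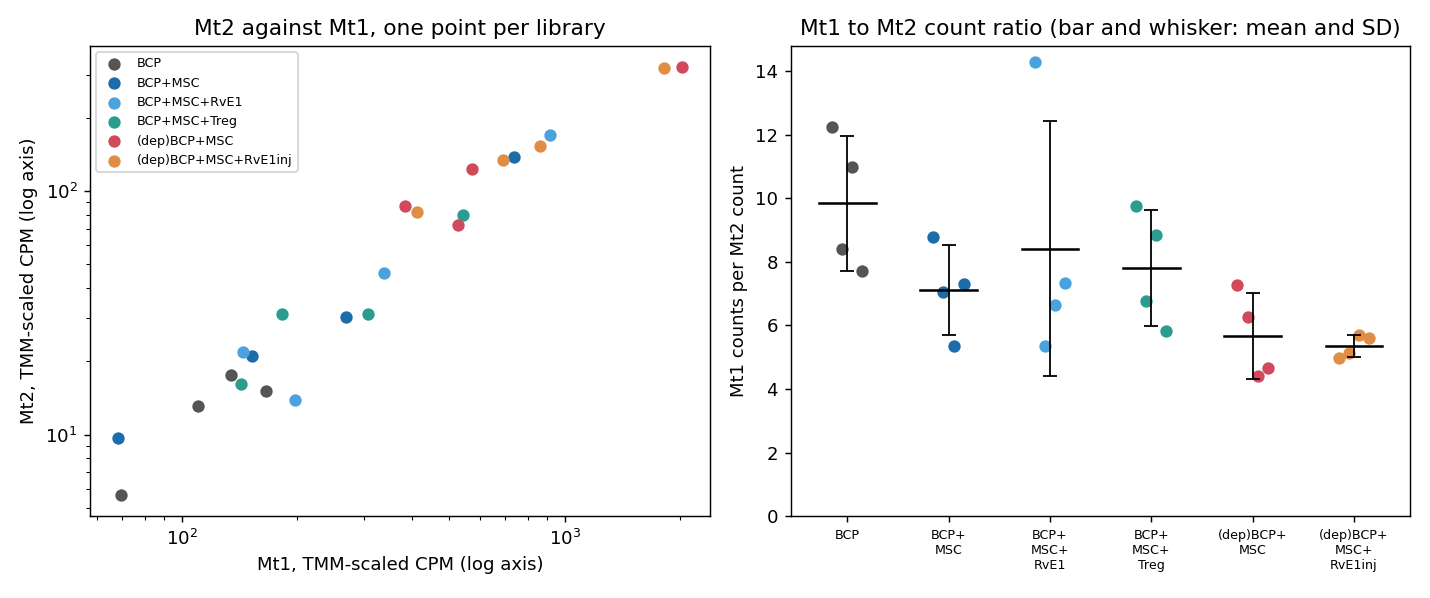
Left, Mt2 against Mt1 in TMM-scaled CPM on log axes with 1 point per library, coloured by group. Right, Mt1 counts per Mt2 count in each library, with the mean and SD of 4 libraries per group, from 9.84 ± 2.13 in BCP to 5.35 ± 0.35 in (dep)BCP+MSC+RvE1inj.

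Slc30a1, the exporter, was steady in comparison and went the other way. Over all libraries it ran from 36.6 to 64.1 CPM, a 1.75-fold range, against 29.6-fold for Mt1 and 57.0-fold for Mt2. It was at 51.3, 53.4, 49.2 and 62.4 CPM in BCP+MSC and at 64.1, 47.3, 54.4 and 51.2 CPM in BCP. It was at 40.9, 37.5, 45.7 and 37.4 CPM in (dep)BCP+MSC and at 36.8, 47.3, 36.6 and 39.4 CPM in (dep)BCP+MSC+RvE1inj. Every library of both toxin groups lay below every BCP+MSC library. The fitted differences were -0.42 ± 0.16 and -0.43 ± 0.16 on the log2 scale, ratios of means of 0.746 and 0.741. Of all genes tested, 4.93% and 4.44% lay apart in this direction in the 2 comparisons. With each library left out in turn they stayed between -0.46 and -0.35 and between -0.52 and -0.36. BCP+MSC+RvE1, at 47.4 ± 5.58 CPM, and BCP+MSC+Treg, at 46.6 ± 6.19 CPM, stood between and overlapped with the others. In the order of means, the steps from BCP+MSC to BCP+MSC+RvE1 and from BCP+MSC+Treg to (dep)BCP+MSC were larger than the SD of either group, and no other step was.

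Slc39a14, the importer, showed no order of the groups beyond the spread. It was at 80.6, 100.1, 110.0 and 84.2 CPM in BCP+MSC, at 179.9, 112, 109 and 107 CPM in (dep)BCP+MSC and at 101, 111, 68.7 and 88.9 CPM in (dep)BCP+MSC+RvE1inj. Its means ran from 88.0 ± 27.7 CPM in BCP+MSC+RvE1 to 127 ± 35.3 CPM in (dep)BCP+MSC. The highest values, 186 CPM in BCP+MSC+Treg replicate 4, 179.9 CPM in (dep)BCP+MSC replicate 1 and 174 CPM in BCP replicate 4, came from the 3 groups' shallowest libraries, and over all libraries log2 CPM had a Pearson r of -0.44 with log10 total counts. The part of depth in these values was not tested. Its log2 fold change against BCP+MSC (± standard error) was 0.44 ± 0.27 in (dep)BCP+MSC and -0.02 ± 0.27 in (dep)BCP+MSC+RvE1inj. Between the toxin groups it was -0.46 ± 0.27, and -0.018 without the 7 shallow libraries.

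Mtf1, the zinc sensor, was at 11.0 to 29.6 CPM over all libraries. BCP had 19.2, 19.9, 20.8 and 29.6 CPM, and BCP+MSC+RvE1 had 16.1, 15.9, 18.3 and 13.2 CPM, each below every BCP library. This difference was -0.49 ± 0.22 on the log2 scale, and 5.8% of all genes lay apart in the same direction. BCP+MSC was at 14.5, 21.5, 12.7 and 18.6 CPM, (dep)BCP+MSC at 19.6, 16.1, 21.0 and 14.0 CPM and (dep)BCP+MSC+RvE1inj at 16.3, 16.1, 11.0 and 13.4 CPM. The toxin groups overlapped with BCP+MSC, with differences of 0.07 ± 0.22 and -0.24 ± 0.22. Where Mt1 was high Mtf1 tended to be low, with a Pearson r of -0.64 over the 24 libraries and -0.57 within groups, and Mt1 and Slc30a1 had -0.69 and -0.36.

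**Figure D3:**
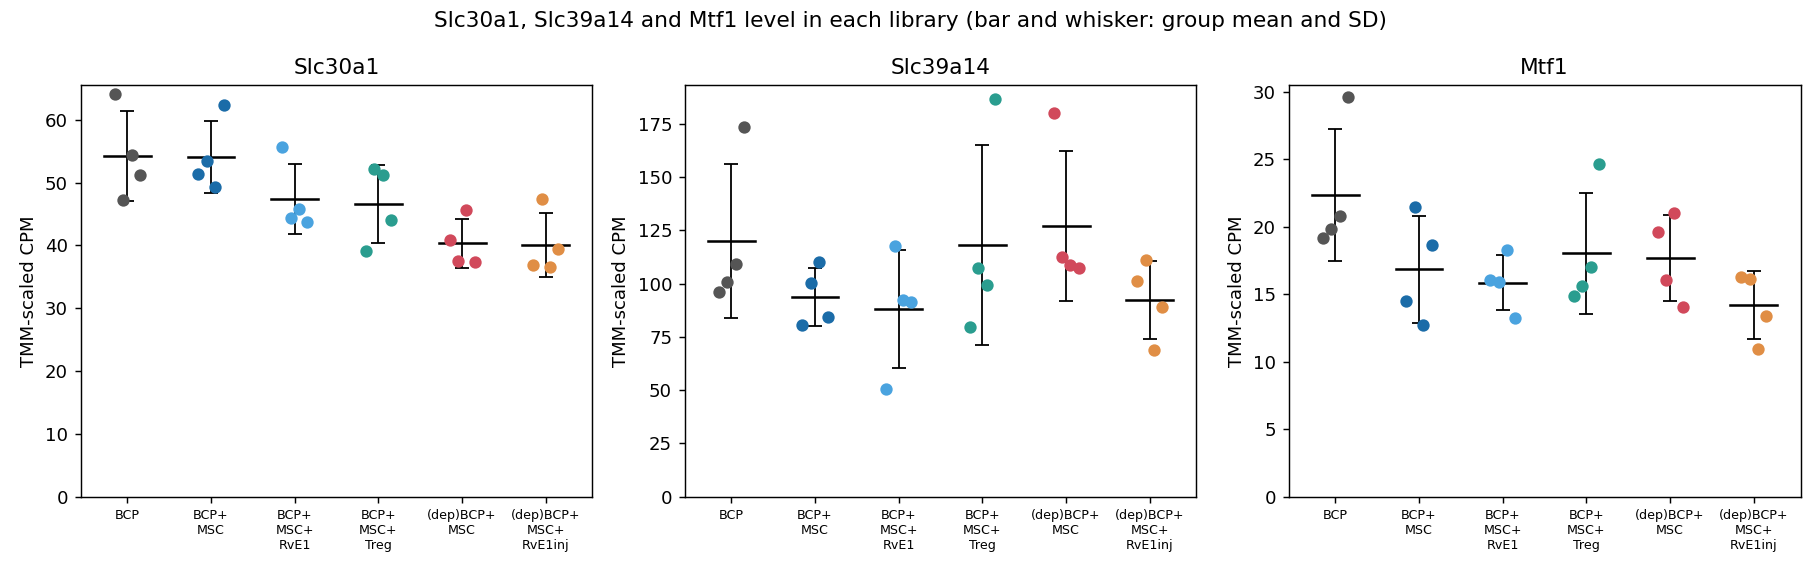
TMM-scaled CPM of Slc30a1, Slc39a14 and Mtf1 on linear axes from 0, with 1 point per library and the mean and SD of 4 libraries per group. Slc30a1 is at 36.6 to 47.3 CPM in the toxin groups and at 49.2 to 62.4 CPM in BCP+MSC, while Slc39a14 and Mtf1 overlap between these groups.

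**Figure D4:**
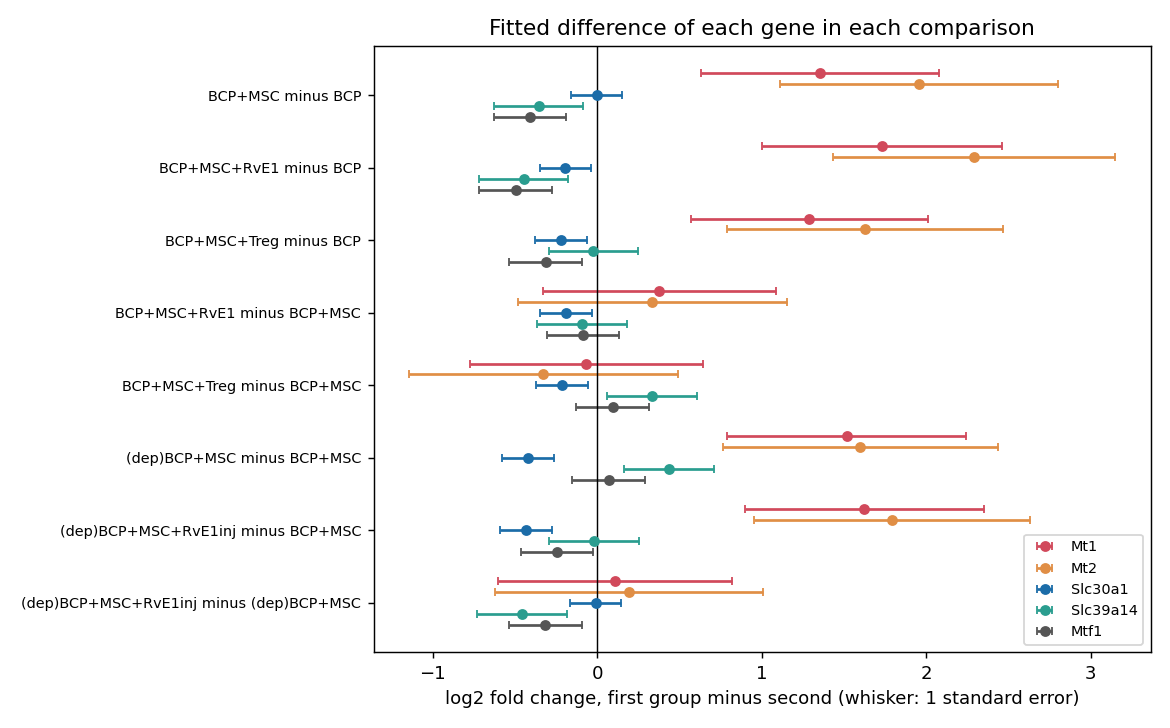
Fitted log2 fold change of the 5 genes in the 8 comparisons, as points with whiskers of 1 standard error. Mt1 and Mt2 lie to the right of 0 in the comparisons against BCP and in both toxin comparisons, at 1.29 to 2.29, with whiskers of 0.72 to 0.86, and the other 3 genes lie within 0.49 of 0.

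In edgeR's quasi-likelihood test, 0 of the 5 genes passed an adjusted p of 0.05 in any of the 8 comparisons, and DESeq2 called 0 as well. An unadjusted p under 0.05 was met by 1 gene in BCP+MSC and 3 in BCP+MSC+RvE1 against BCP, by 2 in (dep)BCP+MSC and 3 in (dep)BCP+MSC+RvE1inj against BCP+MSC, and by 0 in the other comparisons. In the same order, such a p was met by 1546 and 4755 of all genes against BCP and by 6208 and 4200 against BCP+MSC. Since the 5 genes were chosen with their levels known, nothing is read from their counts. Over all genes, 3.92% passed in (dep)BCP+MSC against BCP+MSC (1.75% higher and 2.17% lower) and 0.72% in (dep)BCP+MSC+RvE1inj (0.258% higher and 0.461% lower). In each of the other 6 comparisons 0% passed, with 830 to 4755 genes at an unadjusted p under 0.05 and 0 to 99 genes called by DESeq2.

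The other members of the zinc families were tested in the same model. Of 2 metallothioneins, 9 exporters of the Slc30 family and 13 importers of the Slc39 family, 22 of 24 were tested, and Slc30a8 and Slc30a10 had too few counts. Against BCP+MSC, 1 rose and 1 fell in (dep)BCP+MSC, beside 1.75% and 2.17% of all genes. At an unadjusted p under 0.05 there were 9 of the 22, beside 6208 of all 30564 genes, and DESeq2 called 5, beside 2895. The (dep)BCP+MSC+RvE1inj group had 0 that passed, with 6 at an unadjusted p under 0.05 and 2 called by DESeq2, beside 4200 and 1112 of all genes. Of the other 6 comparisons, 0 had a gene that passed. At an unadjusted p under 0.05 there were 0 to 7, beside 830 to 4755 of all genes. DESeq2 called 0, beside 0 to 99 of all genes.

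Mt4, the metallothionein of stratified epithelia, was the gene that rose, and it was barely present. It had 0, 12, 34 and 2 counts in (dep)BCP+MSC and 0, 1, 0 and 0 in BCP+MSC (edgeR's adjusted p = 0.0469), so no fold is given. It passed in 3 of 16 alternatives, with adjusted p from 0.0288 to 0.14. With RvE1 injected, in (dep)BCP+MSC+RvE1inj, it had 6, 23, 6 and 0 counts (adjusted p = 0.108). The 10 skin and hair markers all had a count in these groups. They summed to 27.3 to 379.7 CPM in (dep)BCP+MSC and 7.78 to 91.3 CPM in (dep)BCP+MSC+RvE1inj against 7.99 to 45.4 CPM in BCP+MSC. These ranges overlapped, with medians of 60.7, 50.2 and 12.0 CPM, and the part of these markers in Mt4 was not tested.

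Slc39a13, a zinc importer of the secretory pathway that is needed for connective tissue, was the gene that fell. It was at 36.2, 42.8, 48.7 and 42.2 CPM in (dep)BCP+MSC and at 70.1, 72.3, 73.5 and 57.3 CPM in BCP+MSC. The groups lay apart, as for 4.93% of all genes in this direction, and the log2 fold change was -0.68 ± 0.16 (edgeR's adjusted p = 0.0166). It passed in 12 of 17 alternatives, with adjusted p from 0.000836 to 0.133. The (dep)BCP+MSC+RvE1inj values were 50.5, 55.3, 39.6 and 43.0 CPM, also below every BCP+MSC library, as for 4.44% of all genes, with a difference of -0.54 ± 0.16 (adjusted p = 0.126). Psmc3 overlaps it on the opposite strand with 243540 counts against 79748, so its counts are uncertain. Among the 13 importers other than Slc39a14, which was at 0.44, the median difference in (dep)BCP+MSC was -0.58, with 12 estimates below 0, beside a median of -0.04 over all genes. For (dep)BCP+MSC+RvE1inj the median of these importers was -0.28, with 10 estimates below 0, and the median over all genes again -0.04. The 7 exporters tested other than Slc30a1, which was at -0.42 and -0.43, had medians of -0.05 and -0.03.

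Mt3, the metallothionein known from brain, was named after its values were seen. Although it lies beside Mt2 and Mt1, it did not share their pattern in the toxin groups. It was at 82.1, 14.3, 61.1 and 33.1 CPM in BCP+MSC, at 7.08, 13.7, 14.2 and 11.5 CPM in (dep)BCP+MSC and at 21.3, 22.2, 13.7 and 5.80 CPM in (dep)BCP+MSC+RvE1inj. All (dep)BCP+MSC libraries lay below all BCP+MSC libraries, as for 4.93% of all genes, although the highest of the former and the lowest of the latter were at 14.2 and 14.3 CPM. The difference was -2.03 ± 0.58 (edgeR's adjusted p = 0.0535), and the other toxin group overlapped, at -1.59 ± 0.57 (adjusted p = 0.217). Without toxin Mt3 ran up to 90.3 CPM in BCP+MSC+RvE1 replicate 2, which was also the highest of its group for Mt1 and Mt2. It passed in 7 of 17 alternatives in the first comparison, DESeq2 among them, with adjusted p from 0.00419 to 0.166.

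**Figure D5:**
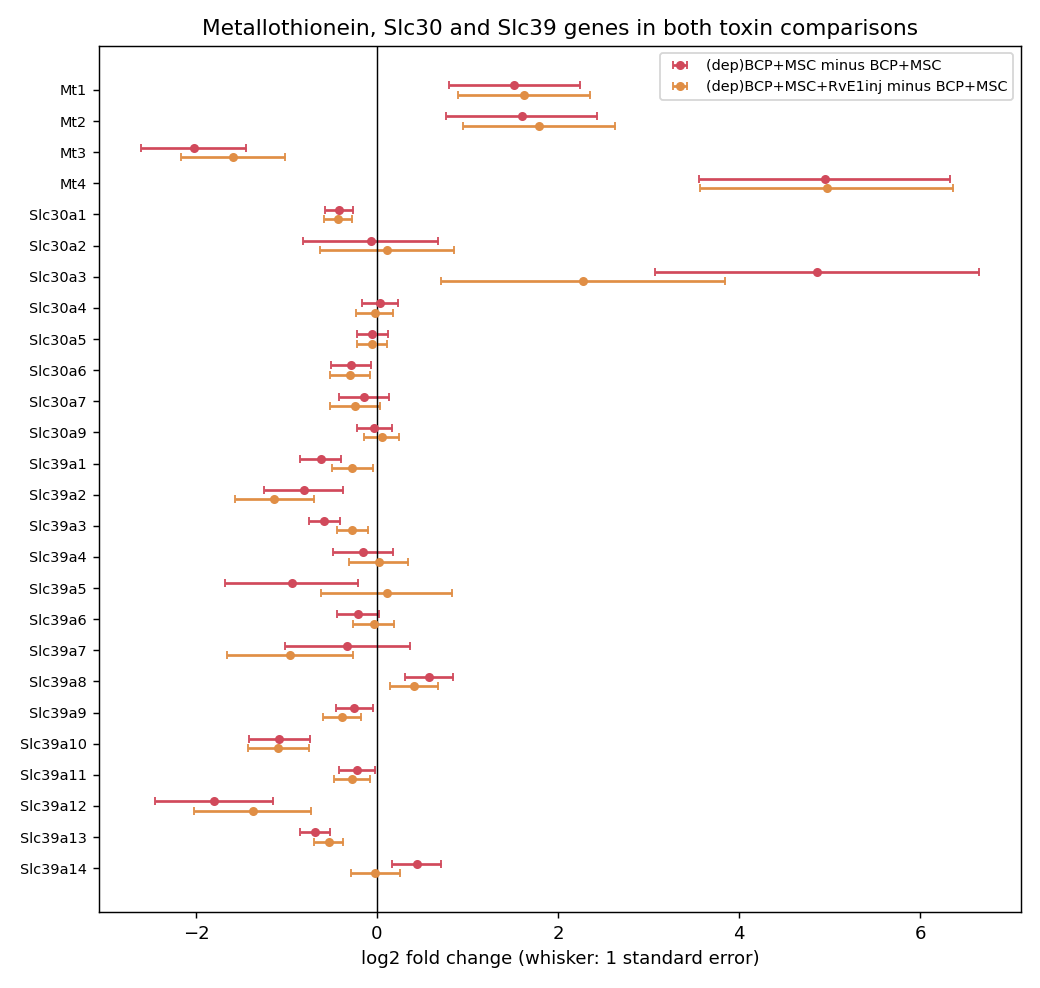
Fitted log2 fold change of the metallothionein, Slc30 and Slc39 genes in both toxin groups against the same BCP+MSC libraries, with whiskers of 1 standard error. Mt1 and Mt2 lie right of 0 and Mt3 left of it, most Slc39 genes lie left of 0, and the estimates of Mt4 and Slc30a3 rest on 90 and 26 counts over all libraries.

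Lists of genes for other signals that are known to act on metallothioneins were set beside these values. The part of these signals in the levels of Mt1 and Mt2 was not tested. Of 11 glucocorticoid response genes, 6 rose in (dep)BCP+MSC against BCP+MSC and 2 rose in (dep)BCP+MSC+RvE1inj, beside 1.75% and 0.258% of all genes, with list medians of 1.78 and 0.70 on the log2 scale and medians over all genes of -0.04 in both. Fkbp5, which tempers the glucocorticoid receptor, was at 487 ± 280 CPM in (dep)BCP+MSC and 322 ± 64.7 CPM in (dep)BCP+MSC+RvE1inj against 45.3 ± 12.5 CPM in BCP+MSC (SD, n = 4 each). Its log2 fold changes were 3.43 ± 0.33 (edgeR's adjusted p = 5.11e-06) and 2.83 ± 0.32 (adjusted p = 0.00013). Tsc22d3, which encodes the glucocorticoid-induced leucine zipper, rose by 1.78 ± 0.33 (adjusted p = 0.00269) and 1.83 ± 0.33 (adjusted p = 0.00817). Per1, a clock gene, rose by 2.27 ± 0.41 in (dep)BCP+MSC (adjusted p = 0.00271). In (dep)BCP+MSC+RvE1inj against (dep)BCP+MSC, 0 of the 11 passed and 10 estimates lay below 0. The list median there was -0.68, beside 0.001 over all genes, while Mt1 and Mt2 differed by 0.11 and 0.19.

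Of 12 acute phase and IL-6 signalling genes, 2 rose in (dep)BCP+MSC, beside 1.75% of all genes. With RvE1 injected 0 passed, with 3 at an unadjusted p under 0.05 and 1 called by DESeq2, beside 4200 and 1112 of all 30564 genes. Lcn2, a siderophore-binding protein, was at 112 ± 92.8 CPM in (dep)BCP+MSC and 9.00 ± 3.07 CPM in BCP+MSC, and rose by 3.63 ± 0.87 on the log2 scale (edgeR's adjusted p = 0.0231). Il6ra, the interleukin-6 receptor, rose by 0.97 ± 0.21 (adjusted p = 0.0088). Of 16 oxidative stress genes, 2 fell in (dep)BCP+MSC, beside 2.17% of all genes, namely Srxn1, which reduces oxidised peroxiredoxins, by 1.22 ± 0.31 (adjusted p = 0.0274) and Sod3, the extracellular superoxide dismutase, by 1.31 ± 0.35 (adjusted p = 0.0344). Here too 0 passed in (dep)BCP+MSC+RvE1inj, with 5 at an unadjusted p under 0.05 and 4 called by DESeq2, beside 4200 and 1112 of all 30564 genes.

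Of 16 iron handling genes, 1 fell in each toxin group, beside 2.17% of all genes in (dep)BCP+MSC and 0.461% in (dep)BCP+MSC+RvE1inj. Tfr2, a transferrin receptor, fell by 1.82 ± 0.36 in (dep)BCP+MSC (edgeR's adjusted p = 0.00493) and by 1.57 ± 0.36 in (dep)BCP+MSC+RvE1inj (adjusted p = 0.0364). Its level was low, with means of 0.771 and 0.899 CPM in these groups against 2.73 CPM in BCP+MSC. The lowest libraries of the toxin groups held 8 and 6 counts of it. Of 11 copper handling genes tested out of 12, 0 passed in either comparison, with 3 and 0 at an unadjusted p under 0.05 and 0 called by DESeq2. Of 11 heat shock genes 0 passed, with 2 and 1 at an unadjusted p under 0.05 and 2 and 1 called by DESeq2. Of all 30564 genes, 6208 and 4200 were at an unadjusted p under 0.05 in these 2 comparisons, and DESeq2 called 2895 and 1112. In the other 6 comparisons 0 of the 76 genes tested in these lists passed. At an unadjusted p under 0.05 there were 0 to 24, beside 830 to 4755 of all genes. DESeq2 called 1 gene in BCP+MSC+RvE1 against BCP, beside 99 of all genes.

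Markers of cell types that a construct can hold were related to the metallothioneins to unlike degrees and in both directions. Over the 24 libraries log2 CPM of Mt1 had a Pearson r of -0.89 with the log2 summed level of 10 fibroblast markers, and Mt2 of -0.83. These markers, all 10 of which were detected in each group, summed to 5603 to 13869 CPM in (dep)BCP+MSC and 4115 to 15767 CPM in (dep)BCP+MSC+RvE1inj against 16389 to 38109 CPM in BCP+MSC and 28292 to 46263 CPM in BCP. The 15 skeletal muscle markers had an r of 0.49 with Mt1 and summed to 30114 to 46825 CPM, 8782 to 41770 CPM and 407 to 29115 CPM in (dep)BCP+MSC, in (dep)BCP+MSC+RvE1inj and in BCP+MSC. With the muscle level as a covariate, the Mt1 differences against BCP+MSC were 1.03 and 1.30. The 12 macrophage markers summed to 5323 to 9364 CPM, 6063 to 11050 CPM and 7757 to 11175 CPM in the same groups, with an r of -0.48. The 10 T cell markers summed to 36.5 to 147, 118 to 157 and 26.9 to 56.6 CPM, with an r of 0.56. The 10 neutrophil and 10 adipocyte markers had r of -0.25 and 0.34. Slc30a1 had an r of 0.70 with the fibroblast markers, and so did Mtf1. These r include the differences between groups, and none was taken within groups. The part of the cell make-up in any of these levels was not tested.

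The 5 genes whose log2 CPM was most like that of each member over the 24 libraries were taken from 12393 protein-coding genes with a mean log2 CPM above 1. For Mt1 these were Mt2, Miip, Eif4ebp1, which encodes a repressor of translation, and Psmd3 and Psmd4, which encode subunits of the proteasome, with r from 0.91 to 0.976 and, within groups, from 0.824 to 0.952. For Mt2 they were Mt1, Wfdc17, Dazap2, Ms4a8a and Lgmn, a lysosomal protease, with r of at least 0.891. For Slc30a1 the highest r was 0.794, with Mamdc2, and the others were Mcoln3, Reps2, Sema4d and Dnmt3a, with r of 0.399 to 0.554 within groups. Slc39a14 was most like Eea1, an early endosome tether, and Zc3h12a, an RNase that degrades inflammatory mRNAs, at 0.803 and 0.791, followed by Ocrl, Picalm and Gpalpp1. Mtf1 was most like Usp31, Zfp236, Ago2, Ccdc93 and Mdm2, the ligase that restrains p53, with r from 0.918 to 0.936. These are descriptions over libraries that share depth, scaling and tissue make-up.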

How the data were processed

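Bulk RNA sequencing of 24 constructs was analysed as 6 groups of 4, taken from the labels' codes. The authors made stranded mRNA libraries for paired-end sequencing, mapped them to the mouse genome (HISAT2 2.0.5) and counted read pairs per gene with featureCounts 1.5.2 and GENCODE M13, which is built on GRCm38 (tools per the labels' processing notes and the study's methods). The deposited values are raw counts for 51138 genes, without normalization. The command names no strand option, so overlapping and antisense genes can affect each other, and reads with several alignments were not counted. Symbols came from GENCODE M21, which matched 50376 identifiers. The (dep)BCP+MSC columns are numbered 1, 2, 4 and 5, while the group's samples are numbered 1 to 4. The samples behind columns 4 and 5 are thus not certain, and these libraries were given no replicate number in the replicate block.

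Genes with at least 10 counts in total were fitted in 1 model over all groups with edgeR 4.0.16 (TMM, robust quasi-likelihood, no covariate) in R 4.3.3, with Benjamini-Hochberg adjustment over the 30564 genes tested. The study's methods used DESeq2, which was run as an alternative (1.42.0). Fold changes are on the log2 scale, and log2 CPM has a prior count of 2. The fits were tested on simulated data. Alternatives were another scaling, filter, tool and set of groups, a replicate block, covariates for sex-linked genes and muscle markers, and libraries left out. The members, the lists and the tests were chosen with earlier results of these data known, so a list's count adds no independent support. Genes named beyond the 5 members are those of the zinc families past the threshold, up to 3 of each other list with the smallest adjusted p in a toxin comparison, the 5 most alike per member, and those said to be named after their values were seen. Foxp3 is named as the gene of the toxin's target cells, and Slc30a3 and Saa3 only to qualify a plot and a count, after their values were seen. Each replicate is a different mouse per the study's text, with 4 mice a group. The p-values of the main fit rest on the spread between mice within groups, with 1 estimate per gene shared by all 6 groups. Python 3.11.15, numpy 2.4.6, pandas 2.3.3 and matplotlib 3.10.9 were used for tables and plots.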

Additional observations from a re-analysis of the deposited data

Results flagged for a closer look

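In 30 sets of 4 libraries (5 genes in 6 groups), 4 had a highest library whose gap to the next one took more of the group's range than the 95% limit of Dixon's test, which chance exceeds in about 1 of 20 groups. Mt1 was at 2023 CPM in (dep)BCP+MSC replicate 2, far above the other libraries of that group. Mt2 was at 138 CPM in BCP+MSC replicate 3, which was also the highest of its group for Mt1. Slc39a14 was at 179.9 CPM in (dep)BCP+MSC replicate 1, the shallowest library of all. Mtf1 was at 29.6 CPM in BCP replicate 4, another of the 7 libraries under 20000000 counts.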

How the results depend on the processing

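Of 680 member differences under the alternatives, 674 moved by less than 1 SD of the groups' log2 CPM. The other 6 include 0.72 for Mt1 and 0.95 for Mt2 in BCP+MSC+RvE1 against BCP, and -0.018 for Slc39a14 in the comparison (dep)BCP+MSC+RvE1inj against (dep)BCP+MSC, without the 7 shallow libraries (chosen after seeing the data). Also among them are the Mt2 differences without BCP+MSC replicate 3, which gave the lowest value of a range from 0.66 to 2.28 with replicates left out in BCP+MSC against BCP and the highest of a range from 1.31 to 3.08 in (dep)BCP+MSC+RvE1inj against BCP+MSC. The last is Slc39a14 with the replicate block, given with that fit. For Mt1 and Mt2 the SD itself was wide, at 0.71 to 1.60 over the comparisons, so a move below it can be large. The Mt1 difference of 1.52 in (dep)BCP+MSC against BCP+MSC, which ran from 0.69 to 2.43 with replicates left out, moved by less than 1 SD. So did the Mt1 and Mt2 differences that changed sign with RvE1 priming or Treg coculture against BCP+MSC. Against BCP+MSC, (dep)BCP+MSC had 2 called genes of the other zinc families, which became 4 with the filterByExpr filter, 1 with no filter, 0 with only the 2 groups compared, 5 with DESeq2, 4 with a covariate for the sex-linked genes, 1 with the added log2 fold change over 1, and 0 to 3 with replicates left out. For (dep)BCP+MSC+RvE1inj the 0 became 2 with DESeq2 and 1 with the sex covariate. Of the other lists, 11 in (dep)BCP+MSC became 5 with only the 2 groups, 19 with DESeq2, 17 with the sex covariate, 6 without the shallow libraries and 6 to 14 with replicates left out. The 3 in (dep)BCP+MSC+RvE1inj became 11, 7 and 1 with DESeq2, the sex covariate and without the shallow libraries, and 2 to 4 with replicates left out. DESeq2 called 1 of them, Saa3, in BCP+MSC+RvE1 against BCP.

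Over all genes, DESeq2 called 6, 99, 3 and 3 genes in BCP+MSC, BCP+MSC+RvE1 and BCP+MSC+Treg against BCP and in BCP+MSC+RvE1 against BCP+MSC, and 8 between the toxin groups, where edgeR called 0. The 1198 genes of (dep)BCP+MSC became 157 with only the 2 groups, 2895 with DESeq2, 630 without the shallow libraries and 467 to 1672 with replicates left out, lowest without (dep)BCP+MSC replicate 1. The 220 of (dep)BCP+MSC+RvE1inj became 40, 1112 and 13 in the same order, 478 with the sex covariate and 45 to 213 with replicates left out, lowest without (dep)BCP+MSC+RvE1inj replicate 4. Fewer libraries were fitted in several of these, and the cause was not tested otherwise.

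The replicate numbers count different mice, and same-numbered libraries did not all deviate together (r from -0.66 to 0.62). The fit with the replicate block leaves out the 2 libraries of (dep)BCP+MSC whose samples are not certain. It called 2443 genes in (dep)BCP+MSC against BCP+MSC and 344 between the toxin groups. Of these, 7 and 1 were of the zinc families and 20 and 4 of the other lists. For Slc39a14 the fit gave 0.79 in (dep)BCP+MSC against BCP+MSC. Depth limits Mt4, which had 34 counts at most in a library.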
